A study of Mus musculus with 12 samples.

Results

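The urea cycle turns ammonia into urea in the liver, and 8 genes that serve it were followed in livers with *Yap1* deleted. The genes were taken by name from a table of transcript abundance: 4 enzymes of the cycle (*Cps1*, *Otc*, *Ass1*, *Asl*), the enzyme that makes the activator of CPS1 (*Nags*), 2 mitochondrial carriers that supply the cycle (*Slc25a15*, *Slc25a13*) and the liver glutaminase (*Gls2*). All 8 were found among the 25676 genes of the table, and all 8 passed the filter on low values that left 12278 genes for testing.

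Bulk RNA sequencing was done on whole livers of 12 mice of C57BL/6 background aged 3 to 4 months, with 1 library per mouse. The KO mice carried a deletion of *Yap1* made by Cre recombinase under the control of *Foxa3* sequences, and the mice labelled WT were their comparison. Each genotype had 3 males and 3 females, which gave 4 groups of 3. YAP1 is the transcriptional co-activator that the Hippo pathway restrains. *Foxa3* is active in the embryonic endoderm that gives rise to both hepatocytes and bile duct cells, so Cre made this way can act in both. The labels do not say whether the WT mice carried a loxP-flanked allele or the Cre.

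In background, ammonia enters the cycle inside hepatocyte mitochondria. GLS2 releases it from glutamine, and CPS1 joins it to bicarbonate in the step that sets the pace of the cycle and that needs N-acetylglutamate, the product of NAGS. OTC passes the resulting carbamoyl group to ornithine, which SLC25A15 brings into the mitochondrion in exchange for citrulline. In the cytosol ASS1 joins citrulline to aspartate that SLC25A13, also called citrin, has carried out of the mitochondrion. ASL then splits off fumarate, after which urea is released and ornithine returned. Hepatocytes near the portal vein carry out most of this work, whereas those around the central vein capture leftover ammonia as glutamine through glutamine synthetase, encoded by *Glul*.

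Values were TPM, transcript abundance scaled by gene length and to a sum of 1000000 in each library, and so a share of the library. A share falls when other transcripts rise, so the main comparisons are given on the deposited scale and again on a rescaled one, in which every library was divided by a median-of-ratios size factor. Values are as deposited where no scale is named. The size factors ran from 0.724 to 0.949 in WT and from 1.09 to 1.34 in KO, with no overlap. The median fold change of all tested genes between KO and WT was 0.35 on the log2 scale as deposited and -0.04 after rescaling, so the scales ask different things: change as a share of the library, and change relative to the typical gene. Folds are differences of log2(TPM + 1), and genes were called at an adjusted p under 0.05 (limma, Benjamini-Hochberg over the 12278 genes).

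*Yap1* itself had 29.5 ± 4.46 TPM in WT and 2.02 ± 0.775 in KO (mean ± SD, n = 6), and no library went against its label. What was left in KO ran from 0.994 to 1.80 TPM in males and from 2.41 to 3.11 in females, with no overlap. The genotype effect on *Yap1* was not called different between the sexes (limma adjusted p = 0.221 as deposited and 0.0682 after rescaling). Its unadjusted limma p was 0.00408 and 0.000611. Depth is not given in the files. A rough estimate from annotated exon lengths put it at 24806586 to 35204727 reads per library, but only 47.6% to 55.5% of low values came out whole within 0.02 read under it. The least abundant member value then rested on about 1507 reads, a counting error of 2.58%. The 10 hepatocyte markers summed to 99723 to 131898 TPM in WT and 121186 to 150011 in KO as deposited, and to 117744 to 144508 and 101302 to 130350 after rescaling, where the order of the genotype medians turned; the ranges overlapped on both scales. Of these 10, 4 were called higher and 2 lower as deposited and 2 higher and 3 lower after rescaling (median fold 0.16 and -0.31). The 6 bile duct markers summed to 27.7 to 58.5 TPM in WT and 252 to 713 in KO, with *Krt7* and *Cftr* under a mean of 0.5 TPM. *Spp1*, at 33.8 ± 11.2 TPM in WT and 492 ± 195 in KO (mean ± SD, n = 6), made up most of the mean sum in each genotype. Of the 4 bile duct markers tested, *Spp1* and *Sox9* were called higher on both scales, *Epcam* was called lower on both, and *Krt19* was not called, with a median fold of 0.72 as deposited and 0.41 after rescaling. The 6 macrophage markers summed to 60.9 to 196 TPM and 301 to 614, and all 6 were called higher in KO on both scales. The 8 stellate cell and fibroblast markers summed to 59.5 to 164 TPM and 138 to 353, and the 6 endothelial ones to 42.4 to 66.7 and 27.3 to 107. Of the former 5 were called higher and 0 lower as deposited and 3 higher and 1 lower after rescaling, and of the latter 1 higher and 1 lower, then 0 higher and 2 lower. Beside the marker counts, 50.1% of all tested genes were called higher and 4.82% lower as deposited, and 20.9% and 18.7% after rescaling. The 5 neutrophil markers (*Ly6g* and *Cxcr2* under 0.5 TPM) summed to 0.0753 to 19.4 TPM and 9.15 to 41.9, the 6 lymphocyte markers to 1.72 to 5.80 and 1.59 to 5.57, and the 3 red cell markers to 531 to 1286 and 354 to 2142. No marker of these lists was at 0 in all 12 libraries. The part of these cell types in the results below was not tested, and in whole tissue fewer hepatocytes cannot be told apart from less of a transcript per hepatocyte.

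The mouse genes lie on 8 chromosomes (build GRCm38, GENCODE annotation, all protein coding). The mitochondrial enzymes and the activator's enzyme are *Cps1* at chr1:67123026-67231259 on the plus strand, *Otc* at chrX:10252305-10321024 on the plus strand and *Nags* at chr11:102145513-102149477 on the plus strand. The carriers are *Slc25a15* at chr8:22375551-22398597 and *Slc25a13* at chr6:6041218-6217173, both on the minus strand. The cytosolic enzymes are *Ass1* at chr2:31470207-31520672 on the plus strand and *Asl* at chr5:130011258-130029247 on the minus strand. *Gls2* lies at chr10:128194457-128210004 on the plus strand. The RefSeq promoter table (GRCm38.p6) matched 5 of the 8 members. The 250 bases before the start site are shown for 3 of them, *Otc* and *Slc25a13*, which were called lower in KO on both scales, and *Slc25a15*, which was higher as deposited. *Otc* is read at chrX:10252055-10252304 on the plus strand, *Slc25a13* at chr6:6217174-6217423 on the minus strand and *Slc25a15*, from the more upstream of its 2 start sites, at chr8:22398622-22398871 on the minus strand. All are written 5′ to 3′, and capitals mark the match found for the hepatocyte factor HNF4A.
Otc: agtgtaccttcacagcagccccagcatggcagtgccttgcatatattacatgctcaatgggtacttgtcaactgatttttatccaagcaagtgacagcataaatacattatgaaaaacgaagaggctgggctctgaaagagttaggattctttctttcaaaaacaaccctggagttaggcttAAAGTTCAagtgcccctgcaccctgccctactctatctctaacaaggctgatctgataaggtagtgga
Slc25a13: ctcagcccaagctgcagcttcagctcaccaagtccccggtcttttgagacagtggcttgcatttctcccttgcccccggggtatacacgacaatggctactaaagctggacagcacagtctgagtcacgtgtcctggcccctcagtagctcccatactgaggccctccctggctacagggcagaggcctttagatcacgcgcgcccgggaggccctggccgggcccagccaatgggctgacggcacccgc
Slc25a15: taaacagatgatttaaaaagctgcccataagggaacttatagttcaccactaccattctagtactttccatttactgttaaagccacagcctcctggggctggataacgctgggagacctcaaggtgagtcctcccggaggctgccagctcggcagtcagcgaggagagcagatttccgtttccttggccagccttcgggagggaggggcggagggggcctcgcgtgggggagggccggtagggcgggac

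In all, 3 motifs were searched on both strands of the 6 windows of these 5 genes: CATTCC for TEAD, the DNA-binding partner of YAP1, AAAGTNCA for HNF4A and TTGCNNAA for the C/EBP factors. The 1 match was AAAGTTCA in *Otc*, on the plus strand and 68 bases before the start. Of 32851 promoter windows of that length, 12.6% held the TEAD letters, 3.53% the HNF4A letters and 9.56% the C/EBP letters. The motifs and the window were chosen after the values had been seen. A match is only a run of letters, and its absence says only that these letters are not in the window.

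Across the pathway the genes did not move as a block. As deposited, *Otc* and *Slc25a13* fell in KO and *Slc25a15* and *Nags* rose, while *Cps1*, *Ass1*, *Asl* and *Gls2* did not pass the test. After rescaling, *Otc*, *Slc25a13*, *Gls2* and *Asl* fell, none rose, and *Cps1*, *Ass1*, *Nags* and *Slc25a15* did not pass. As deposited, 4 of 8 members were called, against 54.9% of all tested genes. The 2 members called higher stand against 50.1% of all genes, and the 2 called lower against 4.82%. After rescaling, 4 of 8 were called, all lower, against 39.6% called in either direction, 20.9% higher and 18.7% lower. *Otc* and *Slc25a13* were lower on both scales, as were 4.81% of all tested genes, and no member was higher on both, against 20.9%. The members' median fold was 0.017 as deposited and -0.45 after rescaling, beside 0.35 and -0.04 for all tested genes.

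**Figure D1:**
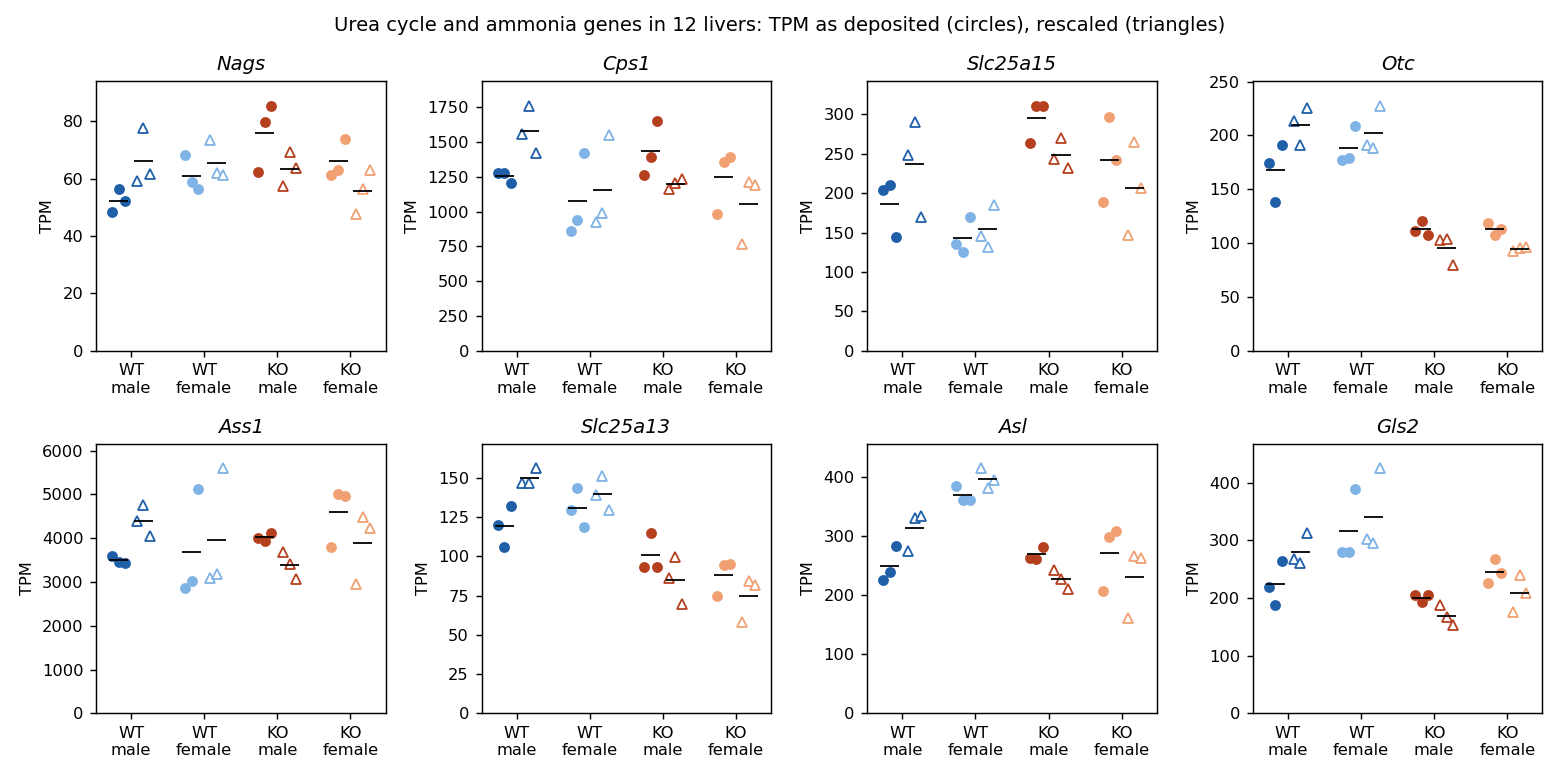
TPM of the 8 genes in each liver (vertical axes, linear and starting at 0) for the 4 groups; filled circles are deposited TPM, open triangles rescaled TPM and horizontal bars group means of 3 livers. The 6 KO circles for *Otc* (107.0 to 120.1 TPM) all lie under the 6 WT circles (138.6 to 208.8 TPM), whereas the circles of *Cps1* and *Ass1* overlap.

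*Otc*, the enzyme that makes citrulline, was the member whose genotypes did not overlap on either scale. It had 174.6, 138.6 and 190.6 TPM in the 3 WT males and 177.4, 178.9 and 208.8 TPM in the 3 WT females. In KO it had 111.5, 120.1 and 107.1 TPM in males and 119.0, 107.0 and 112.6 TPM in females. Every KO liver lay under every WT liver, and the KO livers were close together: 113 ± 5.63 TPM against 178 ± 23.1 (mean ± SD, n = 6). The fall was 0.64 on the log2 scale (SE 0.10, limma adjusted p = 0.000128), or 0.640 times the WT level. After rescaling the KO livers had 79.8 to 104 TPM and the WT livers 188 to 228, and the log2 fold was -1.11 (limma adjusted p = 1.54e-06). An exact permutation test of genotype within sex, two-sided, gave p = 0.005 on both scales, the smallest that its 400 arrangements allow. Leaving out any 1 liver kept the deposited fold between -0.71 and -0.60 and the rescaled one between -1.14 and -1.05, with the call held in all 12 runs on each scale.

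Full separation of the 6 KO from the 6 WT livers was thus seen for 1 member as deposited, where 30.6% of all genes were separated in either direction and 1.88% with KO lower. After rescaling it was seen for 4 members, *Otc*, *Slc25a13*, *Gls2* and *Asl*, all with KO lower, against 19.0% in either direction and 8.19% with KO lower.

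*Slc25a13*, the aspartate and glutamate carrier, was the other gene called lower on both scales. WT males had 120.03, 106 and 132 TPM and WT females 129, 143.5 and 119 TPM, while KO males had 93.4, 115 and 93.4 TPM and KO females 74.9, 94.5 and 95.4 TPM. As deposited 1 KO male reached above the lowest WT male, so the genotypes overlapped, at 125 ± 12.9 TPM in WT and 94.4 ± 12.7 in KO (mean ± SD, n = 6). The log2 fold was -0.40 (SE 0.112, limma adjusted p = 0.00782; exact permutation p = 0.01). After rescaling the livers separated, at 129 to 156 TPM in WT and 58.4 to 99.8 in KO, with a log2 fold of -0.87 (limma adjusted p = 6.42e-05). The call held in all 12 runs that left out 1 liver, on both scales. Its paralog *Slc25a12*, the aralar carrier of most other tissues, had 4.46 ± 0.434 TPM in WT and 5.27 ± 0.445 in KO and was not called on either scale (log2 fold 0.20, limma adjusted p = 0.102; -0.19 and 0.127 after rescaling).

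*Slc25a15*, the ornithine and citrulline exchanger that serves OTC, went the other way as deposited. It had 204, 210.2 and 144 TPM in WT males and 135, 125 and 169.9 TPM in WT females, and 264, 311 and 311 TPM in KO males and 189, 297 and 242 TPM in KO females. The KO livers averaged 269 ± 47.9 TPM and the WT livers 165 ± 36.1 (mean ± SD, n = 6). Only the lowest KO female lay within the WT range. The rise was 0.71 on the log2 scale (SE 0.136, limma adjusted p = 0.000696; exact permutation p = 0.005), and the call held in all 12 runs that left out 1 liver. After rescaling the fold was 0.25 (95% interval -0.11 to 0.61, limma adjusted p = 0.259), so the rise was one in share of the library, and relative to the typical gene the transcript was not called different. The paralogous ornithine carrier gene, *Slc25a2*, had a mean of 0.252 TPM in WT and 0.244 in KO and was under the filter.

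*Nags*, whose product switches CPS1 on, also rose as deposited. WT males had 48.4, 56.4 and 52.2 TPM and WT females 68.2, 58.8 and 56.3 TPM, while KO males had 62.5, 79.96 and 85.5 TPM and KO females 61.4, 63.1 and 74.0 TPM. All 3 KO males lay above all 3 WT males, whereas the female groups overlapped. The log2 fold was 0.32 (SE 0.117, limma adjusted p = 0.0342; exact permutation p = 0.025). The call was lost when any of 6 livers was left out, with an adjusted p of 0.0807 without WT male 1, 0.0697 without WT male 3, 0.0563 without WT female 3, 0.0782 without KO male 2, 0.0715 without KO male 3 and 0.0666 without KO female 3. It was also lost when the 20 most abundant genes were kept out of the scaling (log2 fold 0.24, limma adjusted p = 0.0979). After rescaling by size factors the sign turned, to -0.14 (limma adjusted p = 0.311).

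**Figure D2:**
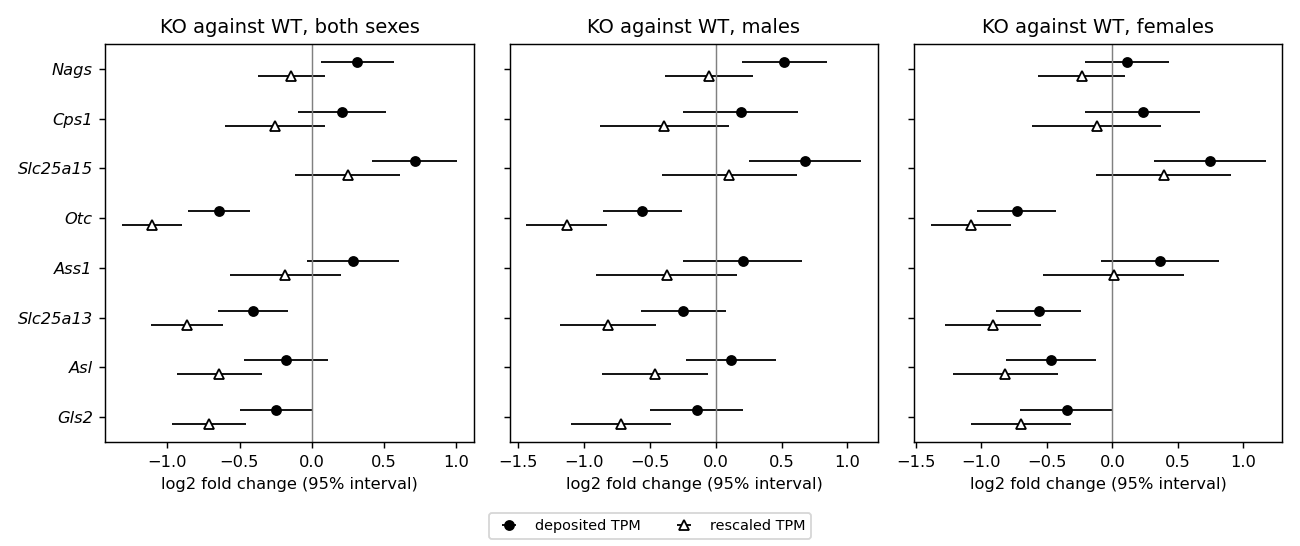
Log2 fold change of KO against WT for each gene (horizontal axis, log2(TPM + 1) scale) with its 95% interval from limma, in both sexes together, in males and in females; filled circles are deposited and open triangles rescaled values. Each triangle lies to the left of its circle, and only for *Otc* and *Slc25a13* do both intervals of the left panel lie under 0.

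*Cps1* and *Ass1*, the most abundant of the 8 genes, were not called different on either scale. *Cps1* had 1277, 1277 and 1207 TPM in WT males and 862, 941 and 1423 TPM in WT females, and 1265, 1392 and 1653 TPM in KO males and 984, 1359 and 1396 TPM in KO females. The genotypes overlapped widely, and the log2 fold was 0.21 as deposited (95% interval -0.09 to 0.51, limma adjusted p = 0.221; exact permutation p = 0.145) and -0.26 after rescaling (-0.60 to 0.09, adjusted p = 0.221). *Ass1* had 3604, 3451 and 3432 TPM in WT males and 2874, 3022 and 5134 TPM in WT females, and 4009, 3946 and 4129 TPM in KO males and 3803, 5016 and 4962 TPM in KO females. Apart from WT female 3, which was the highest of all 12 livers, every KO liver lay above every WT liver. The log2 fold of *Ass1* was 0.28 (limma adjusted p = 0.118; exact permutation p = 0.1), and -0.18 after rescaling (adjusted p = 0.442). Without WT female 3 the deposited fold of *Ass1* was 0.39 and passed the test (limma adjusted p = 0.0213). WT female 3 and KO female 1 are 2 mice whose label numbers are far below those of the other 10, and what this marks is not stated. Without both, *Cps1* (0.36, limma adjusted p = 0.0347) and *Ass1* (0.43, adjusted p = 0.0202) were called higher as deposited, which made 6 members called, 4 of them higher and 2 lower. In that fit 48.5% of 12204 tested genes were called, 44.4% higher and 4.14% lower, so the share of members called higher was near that of all genes. After rescaling, the fold without both was -0.10 for *Cps1* and -0.035 for *Ass1* (limma adjusted p = 0.635 and 0.898). That alternative was chosen after seeing the data.

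*Asl* and *Gls2* did not pass the test as deposited and fell after rescaling. *Asl* had 225, 239.6 and 282 TPM in WT males and 385, 361 and 361 TPM in WT females, and 263, 262 and 281 TPM in KO males and 206, 298 and 307 TPM in KO females. The WT females stood above all other livers, and the WT males lay among the KO livers. The log2 fold was -0.18 (limma adjusted p = 0.285; exact permutation p = 0.215), and -0.64 after rescaling (adjusted p = 0.00225), where WT had 275 to 414 TPM and KO 161 to 266.

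*Gls2*, which frees ammonia from glutamine beside CPS1, had 219.6, 189 and 265 TPM in WT males and 280.3, 279.8 and 389.9 TPM in WT females. KO males had 205, 193 and 205 TPM and KO females 226, 268 and 244 TPM. As deposited, females were higher than males within each genotype, without overlap between the sexes, and the genotypes overlapped. After rescaling the sexes overlapped in both genotypes. The deposited log2 fold was -0.25 (limma adjusted p = 0.0871), while the exact permutation test of this gene alone, with no adjustment over genes, gave p = 0.045. The limma test passed without WT male 2 (-0.31, adjusted p = 0.0317) or with the 20 most abundant genes kept out of the scaling (-0.32, adjusted p = 0.0353). After rescaling it was -0.71 (adjusted p = 0.000414), with 261 to 425 TPM in WT and 153 to 239 in KO.

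Ratios of 2 genes in the same library do not depend on the scaling, and they show unequal change without saying which gene moved. They are given as ranges with no test, and the share of all genes whose ratios separate the genotypes was not computed. *Slc25a15* to *Cps1* ran from 0.119 to 0.165 in the 6 WT livers and from 0.173 to 0.224 in the 6 KO livers, with no overlap. *Slc25a13* to *Cps1* ran from 0.0830 to 0.153 in WT and from 0.0565 to 0.0826 in KO, which also did not overlap, by a narrow margin. *Otc* to *Cps1* ran from 0.109 to 0.206 and from 0.0648 to 0.121, with overlap. *Asl* to *Cps1* (0.176 to 0.446 in WT, 0.170 to 0.220 in KO) and *Gls2* to *Cps1* (0.148 to 0.325 and 0.124 to 0.230) overlapped as well.

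Some pairs are partners or paralogs. The first pair holds the 2 genes that hand ornithine and citrulline to each other. *Otc* to *Slc25a15* was 0.659 to 1.43 in WT and 0.345 to 0.630 in KO, a ratio chosen after the values were seen. *Slc25a13* to its paralog *Slc25a12* was 24.4 to 34.0 in WT and 15.7 to 21.9 in KO, with no overlap, a ratio likewise chosen with values known. *Ass1* to *Asl* (7.47 to 16.0 in WT, 14.7 to 18.4 in KO), *Nags* to *Cps1* (0.0379 to 0.0791 and 0.0464 to 0.0624), *Ass1* to *Cps1* (2.70 to 3.61 and 2.50 to 3.87) and *Gls2* to *Glul* (0.312 to 0.685 and 0.355 to 0.801) overlapped. *Cps1* to *Alb*, the albumin gene, ran from 0.0107 to 0.0222 in WT and from 0.0195 to 0.0331 in KO. The 8 members together made up 0.491% to 0.786% of TPM in WT and 0.566% to 0.750% in KO.

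**Figure D3:**
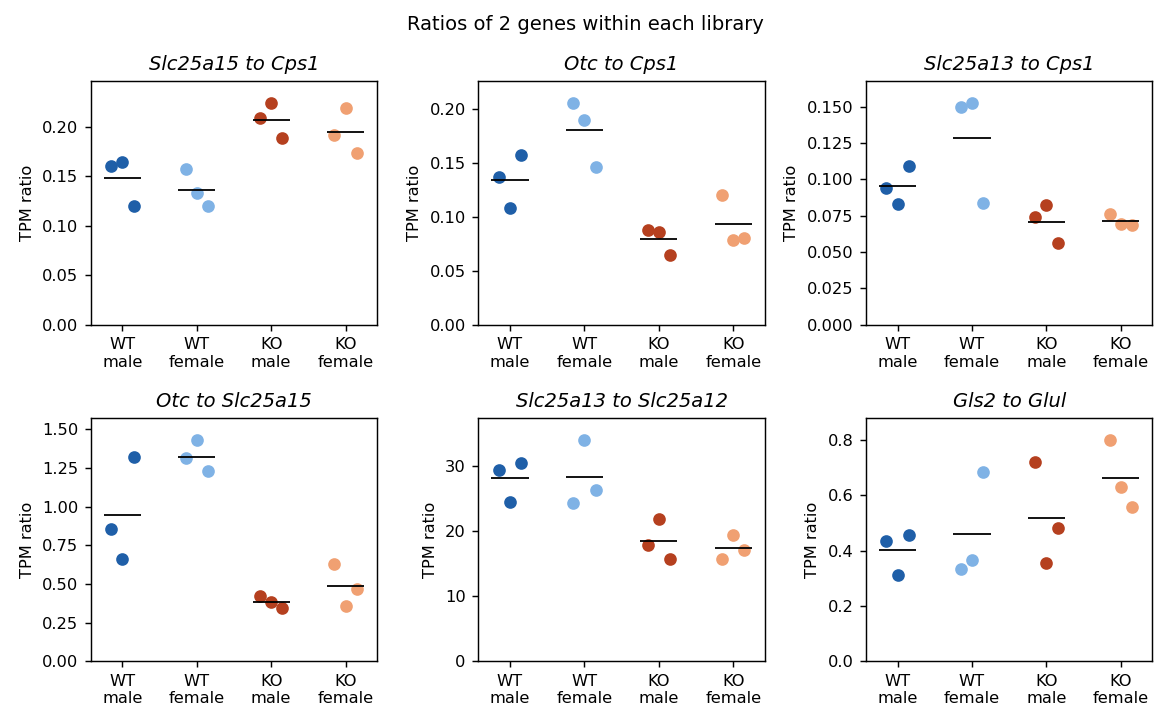
Ratio of the TPM of 2 genes within each liver (vertical axes, linear and starting at 0) in the 4 groups; points are livers and bars group means of 3. *Slc25a15* to *Cps1* is 0.173 or more in KO and 0.165 or less in WT, whereas *Gls2* to *Glul* overlaps (0.312 to 0.685 in WT, 0.355 to 0.801 in KO).

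The sexes were then compared. In males 3 members were called as deposited, against 46.1% of all genes (43.3% higher, 2.81% lower): *Otc* lower (log2 fold -0.56), and *Nags* (0.52) and *Slc25a15* (0.68) higher. In females 4 were called, against 33.8% (29.1% higher, 4.68% lower): *Otc* (-0.73), *Slc25a13* (-0.56) and *Asl* (-0.47) lower, and *Slc25a15* (0.74) higher. After rescaling, males had 3 called lower (*Otc*, *Slc25a13*, *Gls2*) against 24.1% of all genes in either direction, 13.9% higher and 10.2% lower. Females had 4 called lower (*Otc*, *Slc25a13*, *Gls2*, *Asl*) against 26.1% in either direction, 15.2% higher and 10.9% lower. As deposited, the calls of *Otc* in males and in females and of *Nags* in males held in all 12 runs that left out 1 liver, and the other 4 did not. The female call of *Asl* was lost without WT female 1, 2 or 3, KO female 1 or KO male 1 (limma adjusted p from 0.0504 to 0.162), and that of *Slc25a13* without WT female 2 or KO female 1 (0.0553 and 0.0532). As deposited too, *Slc25a15* was lost in females without WT female 2 (limma adjusted p = 0.0531) and in males without WT male 3 (0.0554), and *Ass1* was called higher in females without WT female 3 (log2 fold 0.63, adjusted p = 0.0155). Without both low-numbered mice, *Asl* and *Slc25a13* were not called in females (limma adjusted p = 0.214 and 0.0565), and *Cps1* (log2 fold 0.61, adjusted p = 0.0275) and *Ass1* (0.76, adjusted p = 0.00738) were called higher. After rescaling the same fit in females called *Asl* (-0.58, limma adjusted p = 0.0345) and *Slc25a13* (-0.80, adjusted p = 0.0131) lower, and *Cps1* (0.33, adjusted p = 0.228) and *Ass1* (0.47, adjusted p = 0.137) did not pass. The rescaled female call of *Gls2* was lost in it (-0.42, limma adjusted p = 0.125), and that of *Otc* held (-0.98, adjusted p = 0.00417). In males that rescaled fit also called *Asl* lower (-0.46, limma adjusted p = 0.0324), against an adjusted p of 0.0913 with all 12 livers.

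A difference between the sexes in the genotype effect was tested as an interaction, and 0 of 8 members passed (limma; 0.912% of all genes did), with 1, *Asl*, at an unadjusted p under 0.05. For *Asl* the male effect minus the female effect was 0.58 (95% interval 0.09 to 1.06, limma adjusted p = 0.464), and for *Nags* it was 0.41 (-0.05 to 0.86, adjusted p = 0.609). After rescaling 0 of 8 passed as well (0.839% of all genes), with none at an unadjusted p under 0.05. These intervals are wide beside the genotype effects themselves, so a like response of both sexes was not shown either.

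Between males and females of WT, 0 of 8 members passed as deposited (limma; 5.74% of all genes), with *Asl* and *Gls2* at an unadjusted p under 0.05. *Asl* was lower in males by a log2 fold of -0.57 (limma adjusted p = 0.0541), with all 3 WT females above all 3 WT males, and *Gls2* by -0.49 (adjusted p = 0.0946). After rescaling 0 of 8 passed (4.38% of all genes), *Slc25a15* was at an unadjusted p under 0.05 with a log2 fold of 0.59 (limma adjusted p = 0.156), and *Asl* stood at -0.34 (adjusted p = 0.279). *Otc*, the X-linked member, differed between WT males and females by -0.17 as deposited and 0.05 after rescaling (limma adjusted p = 0.444 and 0.847). In KO 0 of 8 passed on either scale (limma; 0.0814% of all genes on each), with none at an unadjusted p under 0.05.

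The order of the 4 group means differed by gene and by scale. For *Slc25a15* as deposited it was KO males (295 ± 27.0 TPM, SD, n = 3), KO females (243 ± 54.1), WT males (186 ± 36.6) and WT females (143 ± 23.6), with each neighbouring pair overlapping. As deposited *Otc* ran WT females (188 ± 17.7), WT males (168 ± 26.7), then KO males (113 ± 6.61) and KO females (113 ± 5.96), with no overlap between WT males and KO males. For *Slc25a13* the deposited order was WT females (130.5 ± 12.4), WT males (119 ± 13.1), KO males (101 ± 12.5) and KO females (88.2 ± 11.6), each overlapping the next. As deposited *Asl* ran WT females (369 ± 13.8), KO females (271 ± 55.8), KO males (268 ± 10.8) and WT males (249 ± 29.7), and only WT females stood apart from the next group. *Gls2* ran WT females (317 ± 63.5), KO females (246 ± 21.1), WT males (224 ± 38.2) and KO males (201 ± 6.998), again with only WT females apart. *Nags* ran KO males (76.0 ± 12.04), KO females (66.2 ± 6.86), WT females (61.1 ± 6.29) and WT males (52.4 ± 3.99), each overlapping the next. For *Cps1* and *Ass1* every neighbouring pair overlapped as deposited.

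After rescaling, the means of both WT groups stood above those of both KO groups for 6 of the members. *Nags* turned round, to WT males (66.2 ± 10.2 TPM, SD, n = 3), WT females (65.6 ± 6.81), KO males (63.6 ± 5.90) and KO females (55.8 ± 7.70), each overlapping the next. *Gls2* ran WT females (341 ± 73.4), WT males (280.3 ± 28.1), KO females (208 ± 31.5) and KO males (169.6 ± 18.0), and the 1 gap without overlap lay between WT males and KO females. *Asl* ran WT females (396 ± 17.2), WT males (313 ± 33.2), KO females (229.9 ± 59.7) and KO males (226 ± 16.4), with no overlap at the first and second steps. *Otc* (WT males 209.8 ± 17.1, WT females 202 ± 22.0, KO males 95.6 ± 13.7, KO females 94.8 ± 1.80) and *Slc25a13* (149.6 ± 5.56, 139.9 ± 10.9, 85.2 ± 15.1 and 74.7 ± 14.2 in the same order) separated only between WT females and KO males. *Ass1* ran from WT males (4404 ± 356) and WT females (3959 ± 1421) to KO females (3894 ± 812) and KO males (3398 ± 309), with every neighbouring pair overlapping. In the remaining members the order mixed the genotypes. *Cps1* was highest in WT males (1582 ± 170.3), apart from KO males (1202 ± 33.4), and its other neighbours overlapped. *Slc25a15* ran KO males (248 ± 19.7), WT males (236 ± 61.1), KO females (206 ± 58.9) and WT females (154 ± 27.9), with every neighbouring pair overlapping.

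The members varied together only in part. Over the 12 livers the 28 pairs of rescaled log values had correlations from -0.35 to 0.93 with a median of 0.44 and 24 positive. As deposited they ran from -0.84 to 0.80 with a median of 0.069 and 14 positive, so the picture turned on the scale. After each group's mean was taken out they ran from -0.27 to 0.94 rescaled and from -0.35 to 0.92 as deposited. The highest within groups was *Cps1* with *Ass1*, at 0.94 rescaled and 0.92 as deposited. As deposited, WT female 3 had 1423 TPM of *Cps1* and 5134 of *Ass1*, and the other WT females at most 941 and 3022. KO female 1 had 984 and 3803 TPM, and the other KO females at least 1359 and 4962. The correlation without WT female 3 and KO female 1 was not computed. All genes of a library share its scaling and its depth, so these correlations are descriptions. The genes most like each member over the 12 livers, by Pearson correlation of rescaled log values, are given likewise with no test. *Otc* ran closest to *C8g*, *Sucla2* and *Adi1* (0.99 each), *Slc25a13* to *Mrps5*, *Acsm1* and *Mtss1* (0.98 each) and *Asl* to *Gpt2*, *Hgfac* and *Igfbp4* (0.96 each). *Cps1* ran with *Tmprss6*, *Nbr1* and *Fam210b* (0.92 to 0.96) and *Ass1* with *Cbs*, *Slc15a4* and *Pttg1ip* (0.86 to 0.88). *Slc25a15* ran with *Sik3*, *Rpn2* and *Srrm4* (0.95 to 0.96), *Nags* with *Gm14403*, *Ptar1* and *Tmem69* (0.86 to 0.91) and *Gls2* with *Magix*, *Ndrg2* and *Afmid* (0.94 to 0.96).

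Around the cycle, 19 of 21 partners and paralogs were tested. As deposited 8 were called higher and 3 lower, and after rescaling 2 higher and 7 lower, with a median fold of 0.33 and -0.13 that lay close to that of all genes. Beside this and each list count below, the share of all tested genes was 50.1% higher and 4.82% lower as deposited, and 20.9% higher and 18.7% lower after rescaling. *Car5a*, the mitochondrial carbonic anhydrase that supplies bicarbonate to CPS1, fell from 96.0 ± 41.3 to 36.8 ± 10.7 TPM (mean ± SD, n = 6; log2 fold -1.25, limma adjusted p = 0.000664; -1.71 after rescaling). *Aldh18a1*, the first enzyme from glutamate toward proline, rose from 0.449 ± 0.203 to 2.54 ± 0.901 TPM (log2 fold 1.26, limma adjusted p = 6.81e-05; 1.01 after rescaling). *Prodh*, the first enzyme of proline breakdown, had a log2 fold of -0.71 (-1.17 after rescaling), and *Slc25a10*, the dicarboxylate carrier of the inner mitochondrial membrane, one of 0.76 (0.30 after rescaling), both called on both scales. *Oat*, which draws ornithine off toward glutamate, had 812 ± 194 TPM in WT and 629.8 ± 136 in KO and was called lower only after rescaling (-0.36, limma adjusted p = 0.0696; -0.82, adjusted p = 0.0015).

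Among enzymes that free ammonia from other amino acids, 19 of 21 were tested, with 3 higher and 3 lower as deposited and 1 higher and 11 lower after rescaling (median 0.10 and -0.36). *Hal* and *Ftcd*, the first and last enzymes of histidine breakdown, fell by 0.65 and 0.96 on the log2 scale (1.11 and 1.42 after rescaling). The enzymes of the steps between them did not pass as deposited: *Uroc1* had 240.3 ± 26.3 TPM in WT and 229 ± 38.5 in KO, and *Amdhd1* 163 ± 33.0 and 194 ± 27.0. After rescaling *Uroc1* was called lower (-0.54) and *Amdhd1* was not (-0.20). *Shmt1*, the cytosolic serine hydroxymethyltransferase, fell by 0.73 (1.19 after rescaling), and *Asrgl1*, which hydrolyses asparagine, rose from 5.33 ± 1.63 to 13.8 ± 1.49 TPM (log2 fold 1.27, limma adjusted p = 1.85e-05; 0.86 after rescaling). Among carriers of amino acids, ammonia and urea at the membrane, 17 of 22 were tested, with 8 higher and 4 lower as deposited and 4 higher and 7 lower after rescaling (median 0.06 and -0.26). The neutral amino acid carriers *Slc1a4* (1.88 ± 0.498 to 11.98 ± 5.35 TPM), *Slc1a5* (1.44 ± 0.533 to 4.69 ± 1.67) and *Slc7a8* (1.59 ± 0.55 to 6.69 ± 2.51) rose on both scales from low levels. The channel *Aqp8*, which was more abundant, also rose on both (109 ± 62.3 to 283 ± 70.6 TPM). Of this list 4 were called higher and 4 lower on both scales. The glutamate carrier gene *Slc1a2* was among those lower (log2 fold -1.37, and -1.81 after rescaling).

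Of 20 known regulators of urea cycle genes, all tested, 4 were higher and 3 lower as deposited and 0 higher and 10 lower after rescaling (median 0.03 and -0.40), beside 50.1% and 4.82% of all tested genes as deposited and 20.9% and 18.7% after rescaling. Called lower on both scales were *Ppara*, the receptor that drives the fasting programme (39.1 ± 12.3 to 15.3 ± 3.68 TPM; log2 fold -1.27, limma adjusted p = 0.000257; -1.71 after rescaling), *Klf15*, a factor that controls amino acid breakdown (-0.36 and -0.83), and *Foxo3* (-0.34 and -0.78).

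**Figure D4:**
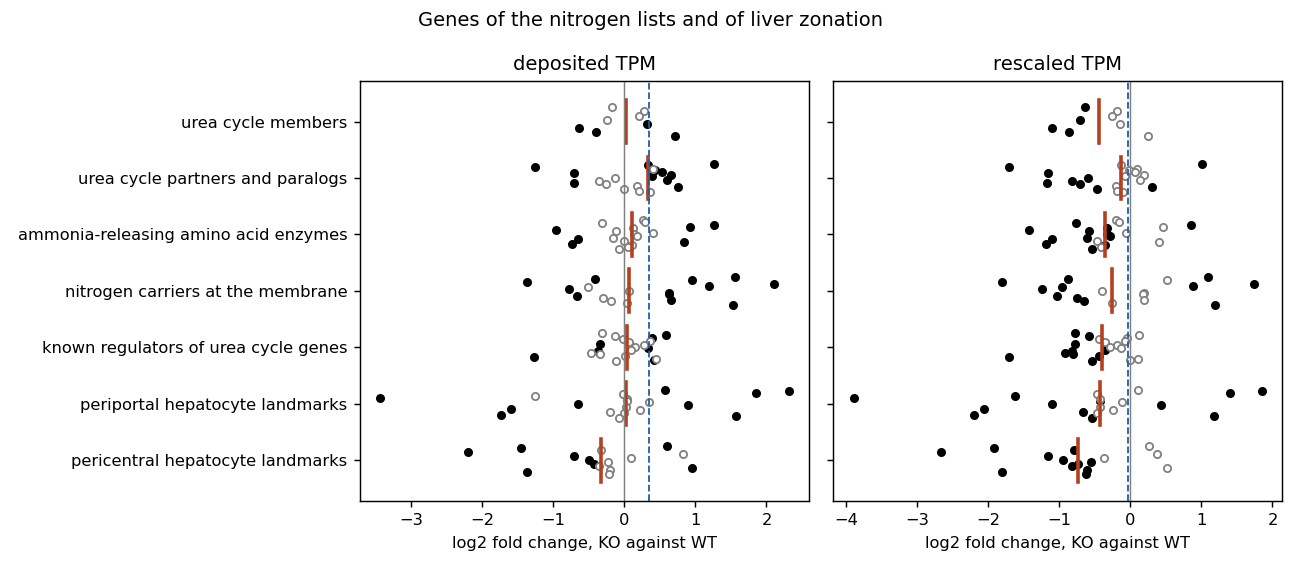
Log2 fold change of KO against WT (horizontal axes) for the tested genes of 7 lists, deposited on the left and rescaled on the right; filled points passed limma's adjusted p threshold, open points did not, red bars are list medians and the dashed line is the median of all tested genes. The median of the 8 members lies at 0.017 and -0.45, that of the pericentral genes at -0.33 and -0.74.

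The members belong to the portal side of the lobule, and landmark genes of both sides were read beside them. All 19 portal landmarks were tested: 5 were called higher and 4 lower as deposited, 4 higher and 8 lower after rescaling (median 0.03 and -0.43). They went both ways. *Cyp2f2*, a cytochrome P450 of portal hepatocytes, fell by 3.43 on the log2 scale (limma adjusted p = 3.45e-09), *Serpina1c* by 1.74 and *Igfals* by 1.60, whereas *Apoa4* rose by 2.32 and *Cdh1*, also a gene of bile duct cells, by 1.85. Each of these was called in the same direction after rescaling.

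All 15 central landmarks were tested too, with 2 higher and 6 lower as deposited and 0 higher and 11 lower after rescaling (median -0.33 and -0.74). *Glul*, the glutamine synthetase that captures what the cycle leaves, fell from 643 ± 128 to 399.7 ± 101 TPM (mean ± SD, n = 6; log2 fold -0.70, limma adjusted p = 0.00478; -1.17 after rescaling). *Slc1a2*, a glutamate carrier of the same cells, fell by 1.37 (1.81 after rescaling). The log2 fold was -2.20 for *Cyp2e1*, -1.46 for *Cyp1a2* and -0.49 for *Lect2*, each also called lower after rescaling. The ammonia channel gene *Rhbg* was higher as deposited, at 10.8 ± 2.81 and 22.0 ± 6.31 TPM (log2 fold 0.95, limma adjusted p = 0.00154), and did not pass after rescaling (0.51, adjusted p = 0.0935). No list was tested as a set, and genes such as *Glul*, *Oat*, *Hal* and *Slc1a2* stand in more than 1 list.

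The authors' deposited table also holds their own comparison of KO with WT. In the authors' deposited table all 8 members have a negative log2 fold change, with a median of -0.56, and 2 have an FDR printed below 0.05: *Otc* (-1.08) and *Slc25a13* (-0.95). That share stands beside 24.2% of the 17332 genes in the authors' deposited table, counted in either direction. The share of all genes with a negative fold there was not computed, so the 8 negative folds have no background beside them. The next members in the authors' deposited table are *Gls2* (-0.60, FDR 0.06) and *Asl* (-0.61, FDR 0.09). *Cps1* (-0.51, FDR 0.20), *Nags* (-0.22, FDR 0.43), *Ass1* (-0.30, FDR 0.52) and *Slc25a15* (-0.11, FDR 0.81) follow in the authors' deposited table. Their signs are opposite to those of the folds of deposited TPM given above. After rescaling only *Slc25a15* kept a positive fold (0.25, limma adjusted p = 0.259). The rises of *Slc25a15* and *Nags* called on deposited TPM are thus not called in the authors' deposited table. The deposited comparison and the fits given here rest on the same 12 livers, so they are no independent check of each other.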

How the data were processed

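Whole-liver RNA of 12 mice was sequenced, 3 per sex and genotype, and groups were taken from the labels. Replicate numbers follow the order of deposition and pair no samples. The authors deposited TPM for 25676 genes, each column summing to 1000000, per the file headers and the values; 0 per-sample columns were unmatched. The authors also deposited a signed fold change (a score with no values between -1 and 1), log2 fold changes and FDR p-values with 2 decimals, per the file headers. These were blank for 8344 genes listed at 0 in all samples and were read only as the authors' values. The submitters' processing notes name GRCm38 and edgeR; aligner, counter, annotation and use of strand are not given in the sources used here.

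Values were analysed as log2(TPM + 1) for the 12278 genes averaging 0.5 TPM or more, a scale which understates the change of low genes. Tests used limma (version 3.58.1, under R 4.3.3) with lmFit and a trended eBayes, two-sided, with Benjamini-Hochberg adjustment over all tested genes and a threshold of 0.05. The genotype comparison had sex as covariate; comparisons within a sex or genotype and the interaction came from 1 model of 4 group means. Rescaling used median-of-ratios size factors over 12819 genes above 0 in every sample, with the same genes tested. The script was tested on simulated data. With n = 3 per group, only the limma model, whose spread is shared over all groups and genes, gave p-values within a sex.

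The 8 genes, the lists around them and the tests were chosen with earlier results of these data known. Named genes were the 8 members, *Slc25a12* and *Slc25a2*, the pericentral genes *Glul*, *Oat* and *Rhbg*, up to 5 genes of each list with the largest fold among those called in the same direction on both scales, and the 3 genes most correlated with each member. Outside this rule, cell type markers, *Alb*, *Uroc1* and *Amdhd1* were named after their values were seen. Alternatives covered scaling, pseudocount, filter, a term for 2 mice with low label numbers, and leaving out each sample. Some genes of the pathway and the lists are not reported here, and counts leave them out. Single mice are the replicates. Promoter windows were read from RefSeq, and genes were placed by identifier with GENCODE, which matched 25635 of 25676.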

Additional observations from a re-analysis of the deposited data

Results flagged for a closer look

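Each genotype's 6 livers were searched for a liver far from the others, for the 8 genes on both scales, in 32 sets of 6 values, where chance alone flags about 1 set in 20. In 3 sets the gap to the nearest value, as a share of the whole range, was above Dixon's critical value at the 95% level. *Cps1* after rescaling was 767 TPM in KO female 1, under the other 5 KO livers, with a gap of 0.858 of the range. *Ass1* as deposited was 5134 TPM in WT female 3, above the other 5 WT livers, with a gap of 0.677. *Gls2* after rescaling was 425 TPM in WT female 3, with a gap of 0.685. These are the 2 mice whose label numbers are far below the others, and the part of any shared handling in these values was not tested.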

How the results depend on the processing

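Over the alternatives, 957 of 1040 values of single members kept their direction and their side of the threshold, 41 changed sign, 22 lost and 20 gained a call. The number of members called between KO and WT was 3 to 5 as deposited and 4 in every run after rescaling when 1 liver was left out, 2 to 3 in males, 1 to 4 in females and 0 to 2 between the sexes of WT. In females it was 1 without WT female 2 and 2 without KO female 1. Between the sexes of WT it was 1 (*Asl*) with a pseudocount of 0.1, a mean TPM of at least 5 or a term for the low-numbered mice; the cause was not tested. No paired analysis was possible because replicate numbers only follow the order of deposition.

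Of the sign changes, 18 came with rescaling by size factors, 16 with leaving out 1 liver and 7 with other settings. Rescaling lowered each KO against WT fold. It gave *Cps1* -0.26, *Ass1* -0.18 and *Nags* -0.14 for KO against WT (the same in the exact permutation test), *Cps1* -0.39, *Ass1* -0.37, *Asl* -0.46 and *Nags* -0.051 in males, and *Cps1* -0.12 and *Nags* -0.23 in females. It gave *Otc* -0.052 and *Gls2* -0.023 for the interaction, and *Otc* 0.054, *Ass1* 0.21, *Nags* 0.0070 and *Slc25a13* 0.098 between the sexes of WT. Of these, *Nags* for KO against WT and in males had been called.

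Without the 20 most abundant genes in the scaling, the sex difference in KO was -0.023 for *Otc* and -0.014 for *Asl*. With a term for the low-numbered mice it was -0.090 for *Asl*, and that in WT 0.047 for *Ass1*. Without both of these mice the interaction was -0.015 for *Gls2*, the sex difference in WT 0.25 for *Ass1*, and that in KO -0.17 for *Asl*. Leaving out 1 liver, values crossed 0 for the interaction of *Cps1* (-0.26 to 0.098) and *Slc25a15* (-0.24 to 0.093), for the sex difference in WT of *Ass1* (-0.17 to 0.25), and for that in KO of *Asl* (-0.17 to 0.11) and *Otc* (-0.045 to 0.038). None of these was called. The effects within a sex rest on 3 livers a group.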
